A study of Mus musculus with 13 samples.

Results

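The 10 genes described here are known for their expression in mast cells: the granule protease genes Cpa3, Cma1, Mcpt4, Tpsb2 and Tpsab1, the histamine-forming enzyme gene Hdc, the receptor genes Kit, Ms4a2 and Fcer1a, and the transcription factor gene Gata2. They were picked by name among 40787 genes in the count table, and all 10 were found there. The difference between genotypes was already known for some of them when they were picked. It is therefore described here without a test, whereas the response to injury within each genotype, and the difference between the 2 responses, are tested.

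RNA was sequenced from sciatic nerves of backcrossed mice, whose strain the labels give as C57BL/6, 5 days after one nerve had been crushed. The injured samples were the whole nerve distal to the crush, and the contralateral samples were the uncrushed nerves. RaptorKO mice were homozygous for a floxed Rptor allele, which encodes the mTORC1 subunit Raptor, and carried a tamoxifen-inducible recombinase (CreERT2) under a glial promoter. Controls were homozygous for the same floxed allele and lacked Cre. Both genotypes received tamoxifen at 2 months of age and were operated on 2 months later. There were 3 control injured, 3 control contralateral, 3 RaptorKO injured and 4 RaptorKO contralateral libraries. The recombinase acts in Schwann cells, the glia of the nerve, whereas the RNA came from all cells left after the epineurium, the outer sheath, had been pulled off. No sorted mast cells were measured.

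Mast cells are long-lived immune cells of connective tissue, and in peripheral nerve they lie in the endoneurium and the outer sheaths. They store proteases, histamine and other mediators in granules and release them when the high-affinity IgE receptor or other surface receptors are engaged. Their survival depends on the receptor tyrosine kinase Kit, and Gata2 is a transcription factor required for their development. Mast cells of connective tissue carry the chymases encoded by Cma1 and Mcpt4, the tryptase encoded by Tpsb2, and carboxypeptidase A3 encoded by Cpa3, whereas Mcpt1 and Mcpt2 are proteases of mucosal mast cells.

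GATA factors bind the words AGATAA and TGATAA, so the 250 bases before the start of each gene were searched for these words on both strands. The sequences came from RefSeq on the GRCm38.p6 build and covered 8 of the 10 genes, all except Tpsb2 and Tpsab1. A word was present in 4 of the 8 genes, Cpa3, Mcpt4, Ms4a2 and Fcer1a, and in 16.6% of 32851 mouse promoters of the same length. Its first base lay 46 bases before the start in Cpa3, 103 in Mcpt4, 92 in Fcer1a, and 224, 37 and 11 in Ms4a2. A match is a description of letters and not a measured binding site. No other form of the word was searched for, so a gene without a match lacks only AGATAA and TGATAA. The E-box CATGTG, a word bound by MITF, was found in 1 of the 8 (Fcer1a) and in 12.3% of the 32851 promoters. The ETS word AGGAAG was found in 4 of the 8 and in 29.5% of the 32851 promoters. These words do not overlap one another in letters.

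The 4 promoters with a GATA word are printed below, 5′ to 3′ on the strand of the gene, with each word in capitals (TTATCT is AGATAA read on the other strand). Cma1 is added without a word in capitals because it is a relative of Mcpt4 on the same chromosome and was called after injury in RaptorKOs, as described further on, whereas Mcpt4 was not. They lie at chr3:20242182-20242431, minus strand (Cpa3), chr14:56062311-56062560, minus strand (Mcpt4), chr19:11623720-11623969, minus strand (Ms4a2), chr1:173227230-173227479, minus strand (Fcer1a) and chr14:55944676-55944925, minus strand (Cma1).
Cpa3: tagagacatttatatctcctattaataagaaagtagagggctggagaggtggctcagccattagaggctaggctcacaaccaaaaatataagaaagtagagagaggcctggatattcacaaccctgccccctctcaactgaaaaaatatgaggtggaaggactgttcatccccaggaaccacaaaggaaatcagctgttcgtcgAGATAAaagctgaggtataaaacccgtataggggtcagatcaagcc
Mcpt4: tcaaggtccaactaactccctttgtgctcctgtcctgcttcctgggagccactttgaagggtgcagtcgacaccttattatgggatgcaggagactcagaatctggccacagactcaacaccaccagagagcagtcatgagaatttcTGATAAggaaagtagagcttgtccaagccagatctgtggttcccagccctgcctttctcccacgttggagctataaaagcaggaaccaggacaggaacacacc
Ms4a2: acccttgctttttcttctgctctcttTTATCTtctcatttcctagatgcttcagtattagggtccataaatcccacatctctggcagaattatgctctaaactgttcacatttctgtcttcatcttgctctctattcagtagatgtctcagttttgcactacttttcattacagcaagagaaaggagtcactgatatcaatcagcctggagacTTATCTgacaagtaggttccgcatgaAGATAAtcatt
Fcer1a: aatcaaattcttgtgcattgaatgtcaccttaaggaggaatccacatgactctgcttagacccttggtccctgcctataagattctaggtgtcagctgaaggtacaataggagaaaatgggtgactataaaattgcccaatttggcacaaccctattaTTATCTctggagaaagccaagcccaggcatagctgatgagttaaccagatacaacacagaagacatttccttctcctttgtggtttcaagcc
Cma1: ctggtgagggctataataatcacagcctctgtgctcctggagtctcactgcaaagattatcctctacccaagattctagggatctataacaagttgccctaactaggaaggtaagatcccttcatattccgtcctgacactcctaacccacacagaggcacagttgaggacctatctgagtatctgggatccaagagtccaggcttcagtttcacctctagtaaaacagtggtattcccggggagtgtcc

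Cma1 and Mcpt4 lie on the minus strand of chromosome 14, 115 kb apart with 8 annotated genes between them, and their transcripts were 71.4% identical over the aligned bases, with a longest shared run of 27 bases. Tpsb2 and Tpsab1 lie 20.7 kb apart on chromosome 17 with no gene between them, and were 75.1% identical with a longest shared run of 23 bases. Cpa3, on chromosome 3, overlaps the microRNA gene Mir7007 on its own strand, and none of the other 9 members overlaps an annotated gene. Of the 130 member values, 2 were not whole numbers, both of Kit, so almost no reads of these genes had been divided between genes by the authors' estimation.

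Library totals ranged from 8200458 to 13581775 counts. Levels are given as CPM, counts scaled to a common library size with an adjustment for library composition. A count of 3, the limit that a count of 0 allows, corresponded to 0.230 CPM in the largest library (RaptorKO contralateral 2) and to 0.388 CPM in the smallest (RaptorKO contralateral 4). Rptor ranged from 43.9 to 52.7 CPM in control and from 22.1 to 28.2 CPM in RaptorKO contralateral nerves, and from 35.2 to 48.8 and 23.3 to 28.8 CPM in injured nerves, with no overlap between genotypes in either nerve. Both libraries of control 3 held 14462 and 15017 counts of Xist, an RNA made from the inactive X chromosome of females, against 4 to 17 in the other 11. Genotype differences and summed-count ratios of the members are given below with and without them. So are the injury effects of Cpa3, Cma1, Mcpt4 and Tpsb2 in controls. Among Schwann cell markers, Mbp, a myelin protein gene, ranged from 21917 to 24104 CPM in control and from 21163 to 25118 CPM in RaptorKO contralateral nerves, and Sox10, a transcription factor of the lineage, from 620.0 to 699.5 and from 482 to 590 CPM.

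Cpa3, Cma1, Mcpt4, Tpsb2 and Hdc were several-fold higher in RaptorKO than in control nerves, crushed or not. Kit and Gata2 differed by less than 2-fold between genotypes in both nerves. In injured nerves, 9 of the 10 members had every RaptorKO library above every control library, all except Gata2, where 8.29% of all 23612 genes with a count did so (11.7% of the 12040 genes that passed the count filter). In contralateral nerves, 7 of 10 did so, all except Tpsab1, Kit and Gata2, against 6.30% of genes with a count (9.98% of the 11878 that passed). The members were picked with this contrast known, and nothing further is read from these shares. In whole nerve, more mast cells and more of these RNAs per mast cell cannot be told apart.

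**Figure D1:**
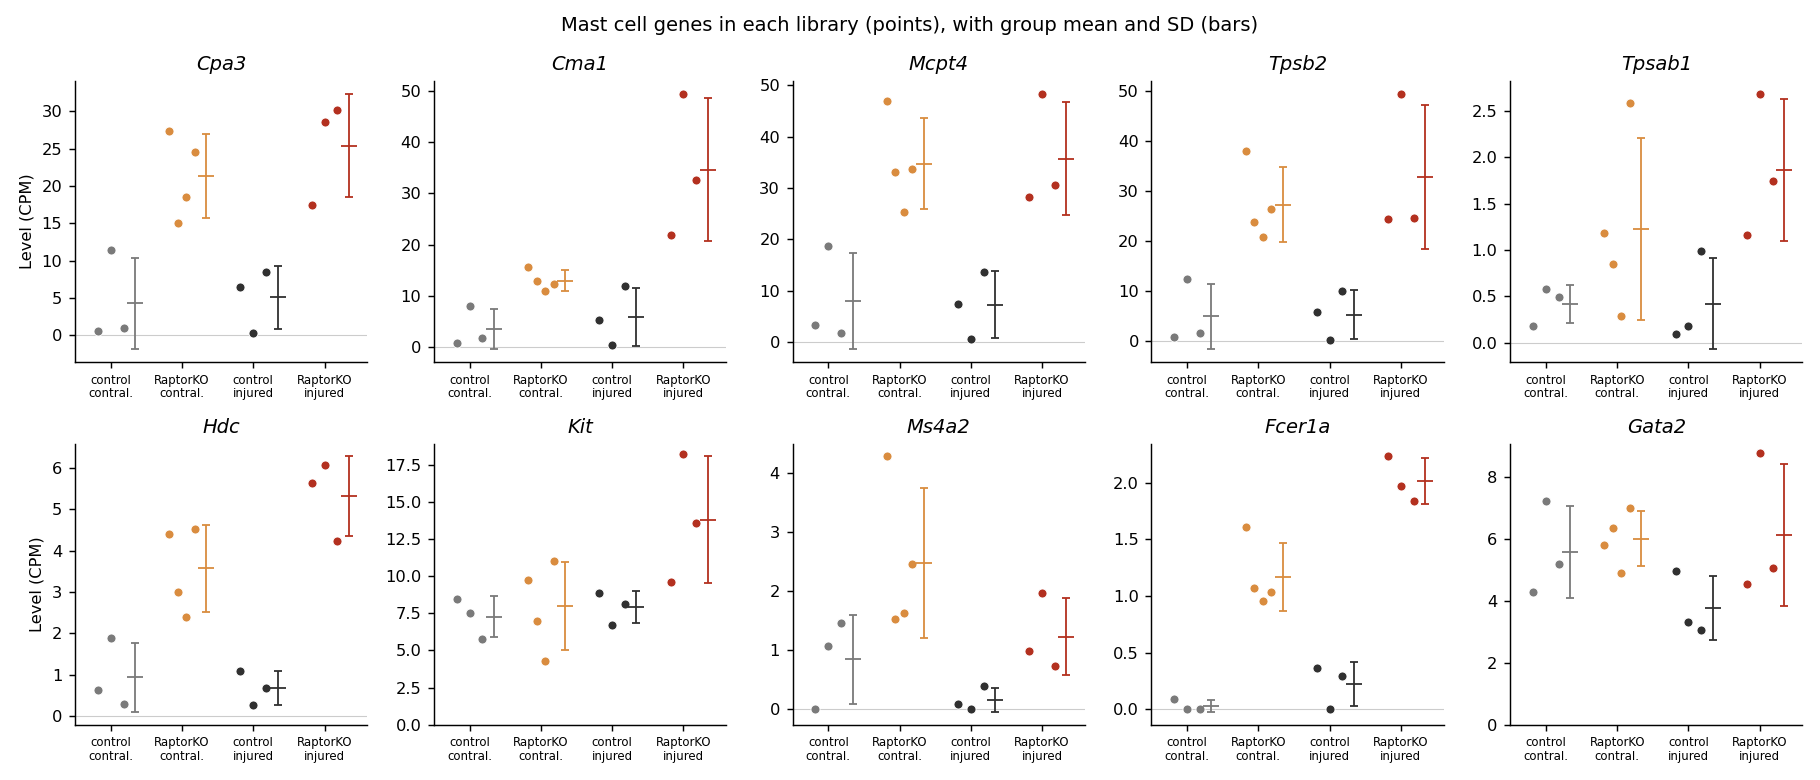
Level of each of the 10 genes in each library (CPM, linear axes that differ between panels); points are libraries, and the bar beside each group is its mean ± SD (n = 3, 3, 3 and, for RaptorKO contralateral, 4). RaptorKO libraries lie above all control libraries of the same nerve for Cpa3, Cma1, Mcpt4, Tpsb2, Hdc, Ms4a2 and Fcer1a, and for Cpa3, Cma1, Mcpt4 and Tpsb2 control contralateral 2 is the highest and control injured 2 the lowest library of its group.

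Cpa3, which encodes a metalloprotease of the granule that trims C-terminal residues, was at 0.548, 11.4 and 0.980 CPM in control contralateral libraries 1 to 3 and at 27.3, 15.0, 18.5 and 24.6 CPM in RaptorKO contralateral libraries 1 to 4. In injured nerves, it was at 6.51, 0.368 and 8.46 CPM in controls and at 17.5, 28.6 and 30.2 CPM in RaptorKOs. The genotypes did not overlap in either nerve. On the log2 scale the controls spread more widely than the RaptorKOs (SD 2.13 against 0.389 contralaterally and 2.19 against 0.431 when injured). In CPM the SD was 6.13 in controls against 5.61 in RaptorKOs contralaterally, and 4.22 against 6.93 when injured. The log2 fold change of RaptorKO over control was 2.28 (SE 0.72) in contralateral and 2.33 (SE 0.57) in injured nerves.

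Mcpt4, a chymotrypsin-like protease of connective tissue mast cells, was at 3.47, 18.8 and 1.86 CPM in control contralateral nerves and at 46.8, 33.0, 25.4 and 33.8 CPM in RaptorKO contralateral nerves. After the crush, it was at 7.52, 0.737 and 13.8 CPM in controls and at 28.3, 48.3 and 30.6 CPM in RaptorKOs. Between genotypes, the log2 fold change was 2.10 (SE 0.59) and 2.31 (SE 0.57), respectively, and the genotypes overlapped in neither nerve.

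Cma1, the other chymase gene, was at 0.914, 8.10 and 1.76 CPM in control and at 15.8, 12.95, 11.0 and 12.4 CPM in RaptorKO contralateral nerves. On the log2 scale its 4 RaptorKO contralateral values had an SD of 0.212, against 0.360 to 0.389 for Cpa3, Mcpt4 and Tpsb2. In injured nerves, it was at 5.41, 0.460 and 11.9 CPM in controls and at 21.95, 49.4 and 32.6 CPM in RaptorKOs. Between genotypes, the log2 fold change was 1.85 (SE 0.55) in contralateral and 2.57 (SE 0.61) in injured nerves.

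Tpsb2, a tryptase gene, was at 0.822, 12.5 and 1.57 CPM in control and at 38.0, 23.8, 20.8 and 26.4 CPM in RaptorKO contralateral nerves. Crushed control nerves held 5.87, 0.184 and 9.93 CPM, and crushed RaptorKO nerves 24.4, 49.4 and 24.5 CPM. It showed the largest log2 fold change of the 4 abundant proteases in both nerves, 2.43 (SE 0.66) and 2.65 (SE 0.64). The 4 spanned 1.85 to 2.43 contralaterally and 2.31 to 2.65 in injured nerves, with standard errors of 0.55 to 0.72, so their order was not resolved.

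Tpsab1, the second tryptase gene, was scarce. It had 14 counts in all over the control and 45 over the RaptorKO contralateral nerves, where the genotypes overlapped. In injured nerves it was at 0.0917, 0.184 and 0.983 CPM in controls and at 1.16, 2.68 and 1.75 CPM in RaptorKOs, without overlap. The ratio of RaptorKO to control, from counts summed over libraries, was 2.64 (95% interval 1.43 to 5.22) in contralateral and 4.66 (2.55 to 9.22) in injured nerves. These intervals are exact binomial intervals and cover counting error only, not the spread between libraries.

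Hdc encodes histidine decarboxylase, the enzyme that forms histamine. It was at 0.640, 1.88 and 0.294 CPM in control and at 4.39, 2.99, 2.39 and 4.53 CPM in RaptorKO contralateral nerves. In injured nerves, it was at 1.10, 0.276 and 0.688 CPM in controls and at 5.62, 6.08 and 4.23 CPM in RaptorKOs, a log2 fold change of 2.94 (SE 0.46). The highest injured control was under every RaptorKO library of either nerve. In injured nerves Hdc passed the filter of 50 counts in 2 libraries through the RaptorKOs alone, and in contralateral nerves it did not pass. The ratio of summed counts was 3.49 (95% interval 2.37 to 5.27) in contralateral nerves.

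Fcer1a encodes the IgE-binding subunit of the receptor and was near the detection limit in controls. It had 1 count in all over the 3 control contralateral nerves and 7 over the 3 injured ones, and 3 of these 6 libraries held none. RaptorKO nerves held 8 to 15 counts each (0.958 to 1.61 CPM) contralaterally and 20 to 25 (1.84 to 2.23 CPM) when injured. The ratio of summed counts was 38.7 (95% interval 6.61 to 1559) in contralateral and 9.19 (4.23 to 23.7) in injured nerves. The first of these rests on a single control count, which leaves its size uncertain.

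Ms4a2, the subunit of the IgE receptor that amplifies its signal, was at 0, 1.06 and 1.47 CPM in control and at 4.29, 1.53, 1.63 and 2.46 CPM in RaptorKO contralateral nerves. After the crush, it was at 0.0917, 0 and 0.393 CPM in controls and at 0.982, 1.97 and 0.735 CPM in RaptorKOs. The genotypes were separated in both nerves, but in contralateral nerves only by the step from 1.47 to 1.53 CPM. The ratio of summed counts was 2.82 (95% interval 1.84 to 4.47) and 8.08 (3.21 to 26.1), respectively.

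Kit, the receptor for stem cell factor, had a smaller difference between genotypes. In contralateral nerves, it was at 8.50, 7.53 and 5.78 CPM in controls and at 9.75, 6.97, 4.31 and 11.0 CPM in RaptorKOs, a log2 fold change of 0.15 (SE 0.31) with overlapping groups. In injured nerves, it was at 8.90, 6.72 and 8.16 CPM in controls and at 9.64, 18.2 and 13.6 CPM in RaptorKOs, a log2 fold change of 0.82 (SE 0.26). Control injured 2, which had the fewest protease counts, still had 73 counts of Kit, and the lowest RaptorKO value was just above the highest control value. Kit is not exclusive to mast cells, and bulk RNA does not separate its sources.

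Gata2 was at 4.29, 7.20 and 5.19 CPM in control and at 5.79, 6.36, 4.88 and 6.99 CPM in RaptorKO contralateral nerves, a log2 fold change of 0.12 (SE 0.26). After the crush, it was at 4.95, 3.32 and 3.05 CPM in controls and at 4.55, 8.76 and 5.05 CPM in RaptorKOs, with overlap and a log2 fold change of 0.72 (SE 0.35). Gata2 is also a gene of endothelial cells. The 6 endothelial markers (Pecam1, Cdh5, Kdr, Tek, Emcn, Cldn5) were all called higher in injured RaptorKO nerves, where they summed to 408 to 646 CPM against 227 to 340 CPM in injured controls, and 0 of 6 were called in contralateral nerves. Their part in the Kit and Gata2 values was not tested.

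**Figure D2:**
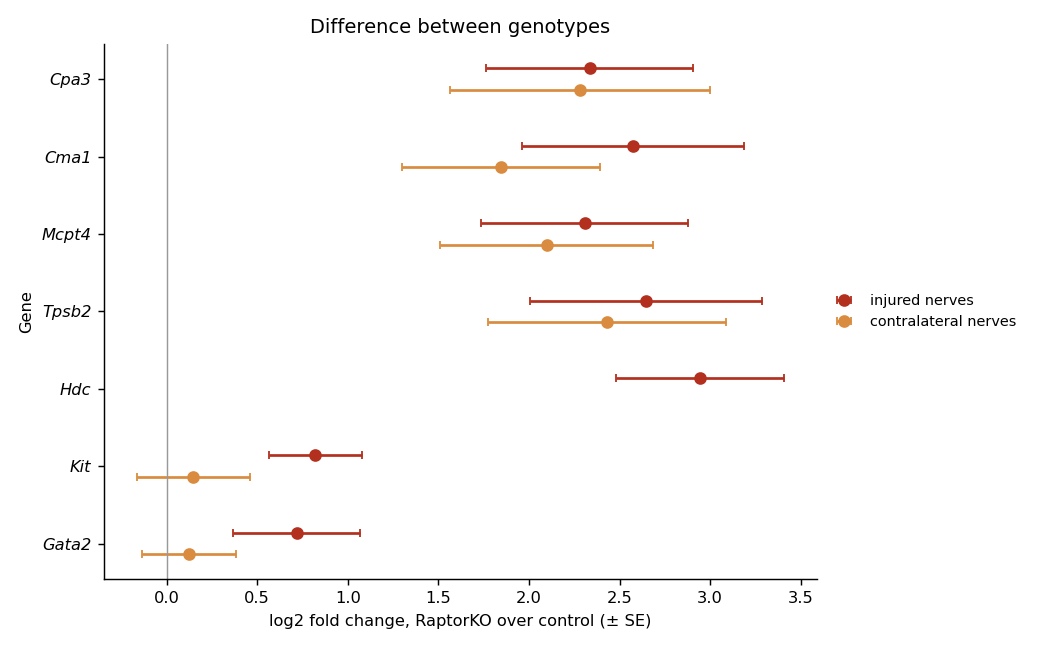
Log2 fold change of RaptorKO over control (points, with bars of ± 1 standard error of the fit) for the members that passed the count filter in injured or contralateral nerves. Cpa3, Cma1, Mcpt4, Tpsb2 and Hdc lie between 1.85 and 2.94, and Kit and Gata2 lie at or below 0.82.

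The control libraries differed widely among themselves. The 5 protease genes summed to 5.94, 51.4 and 6.66 CPM in control contralateral libraries 1 to 3 and to 25.4, 1.93 and 45.0 CPM in control injured libraries 1 to 3, against 75.9 to 129 and 93.3 to 178 CPM in the corresponding RaptorKO libraries. Control contralateral 2 thus held most of the protease RNA of its group, and control injured 2 held almost none. The SD of log2 CPM within a group was 1.503 to 2.13 for the 4 abundant proteases in control contralateral nerves and 2.06 to 2.57 in control injured nerves. The median gene had an SD of 0.147 and 0.172 in the same groups, and over 99% of 12851 genes varied less than these 4. In RaptorKO nerves their SD was 0.212 to 0.389 contralaterally and 0.415 to 0.583 when injured, against medians of 0.194 and 0.188. Control injured 2 held only 2 counts of Tpsb2 and 8 of Mcpt4, and counting error at such low counts adds to the log2 SD. The controls are therefore not compared like for like with RaptorKOs or with the median gene. Kit (0.277 and 0.202) and Gata2 (0.365 and 0.357) varied far less among controls.

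In contralateral nerves Cpa3, Cma1, Mcpt4 and Tpsb2 passed the count filter through the RaptorKOs, since all 4 RaptorKO libraries but only 1 control library (control 2) reached 50 counts, and in injured nerves the same held for Hdc (2 RaptorKO and 0 control libraries) and Gata2 (3 and 1). Their fold changes are therefore descriptions of genes that had to be high in one group to be included.

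Leaving out single control libraries changed the size of the genotype difference. Without control contralateral 2, the log2 fold change in contralateral nerves was 4.81 for Cpa3, 4.52 for Tpsb2, 3.71 for Mcpt4 and 3.30 for Cma1. Without control injured 2, that in injured nerves was 1.78 for Cpa3, 2.07 for Tpsb2, 1.76 for Mcpt4, 2.02 for Cma1 and 2.57 for Hdc. Without the Xist-positive control 3, it was 2.90 for Cpa3, 3.45 for Tpsb2, 3.13 for Mcpt4, 3.57 for Cma1 and 2.94 for Hdc in injured nerves, and 1.83, 2.03, 1.65 and 1.53 for Cpa3, Tpsb2, Mcpt4 and Cma1 in contralateral nerves. The direction was the same in each case. Kit and Gata2 were then at 0.84 (SE 0.30) and 0.59 (SE 0.39) in injured nerves and at 0.01 (SE 0.35) and 0.08 (SE 0.31) in contralateral nerves.

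The ratios of summed counts also moved without control 3. In contralateral nerves they became 2.86 for Tpsab1, 2.67 for Hdc, 4.22 for Ms4a2 and 26.8 for Fcer1a. In injured nerves they became 13.8 for Tpsab1 (95% interval 4.51 to 68.5), 27.5 for Ms4a2 (4.69 to 1113) and 11.0 for Fcer1a (4.09 to 41.3). The 2 larger injured values rest on 3 and 1 control counts, so their size is uncertain. The SD of log2 CPM of the 4 abundant proteases between controls 1 and 2 alone was 1.68 to 2.81 in contralateral and 2.17 to 2.85 in injured nerves.

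Across the libraries, the granule genes rose and fell together. After subtracting each group's mean of log2 CPM, the 10 pairs among Cpa3, Cma1, Mcpt4, Tpsb2 and Hdc had Pearson correlations of 0.696 to 0.988 over 13 libraries (median 0.941). Each of these 5 genes with Kit or Gata2 gave 0.290 to 0.588 (median 0.430). All points share library depth, and the 6 control libraries carry most of the spread, so these values are a description. The 8 genes outside the list whose centred pattern was most like the mean of the members were Cep126 (r = 0.94), Nat10 (0.89), Arpp19 (0.89), Ino80c (0.87), Zbtb21 (0.86), Nsrp1 (0.86), Mff (0.86) and Them4 (0.86), among 12844 genes with the middle 98% between -0.69 and 0.68. Of these 8, 2 were again among the nearest 8 without control contralateral 2, and 1 without centring, when Il1rl1, a receptor gene of mast cells, entered them.

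Levels of different genes were compared per kilobase of exon (RPKM). In RaptorKO contralateral nerves, Mcpt4 (31.4 ± 8.03 RPKM, SD, n = 4) led, followed by Tpsb2 (17.1 ± 4.73), Cpa3 (14.1 ± 3.70) and Cma1 (12.0 ± 1.82), with overlapping ranges between neighbours. A gap without overlap separated Cma1 from Fcer1a (1.17 ± 0.297), below which Gata2, Kit, Ms4a2, Tpsab1 and Hdc lay between 1.11 and 0.560 RPKM with overlapping ranges. In RaptorKO injured nerves, Cma1 (31.8 ± 12.7, n = 3) reached the level of Mcpt4 (32.2 ± 9.89), ahead of Tpsb2 (20.6 ± 9.05) and Cpa3 (16.8 ± 4.57), and the same gap followed before Fcer1a (2.02 ± 0.200). In control injured nerves the ranges of the 4 proteases overlapped those of Kit and Gata2, and in control contralateral nerves those of Cpa3, Cma1 and Tpsb2 did, whereas Mcpt4 (1.68 to 17.0 RPKM) lay above both. Gata2 and Kit there stood at 1.03 ± 0.276 and 0.816 ± 0.154 RPKM in contralateral nerves and at 0.699 ± 0.191 and 0.890 ± 0.124 RPKM in injured nerves (n = 3 each). Without control 3, the control means of the 4 proteases were 3.93 to 10.1 RPKM in contralateral and 1.90 to 3.73 RPKM in injured nerves, against 2.84 to 7.27 and 3.34 to 6.63 RPKM with it.

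The next question was whether crush injury changed these genes. In controls, 6 members passed the filter and 0 were called (quasi-likelihood test of edgeR, adjusted p of 0.132 to 0.970), while 32.4% of 12430 genes tested were called higher and 32.9% lower. A gene was called at an adjusted p below 0.05 and a fold change above 1.2. Cpa3, Cma1, Mcpt4 and Tpsb2 passed through 2 injured and 1 contralateral library. None of the 6 had an unadjusted p below 0.05, and the exact test and DESeq2 also called 0. The injured and contralateral controls overlapped for all 10 members, where 36.2% of the genes tested (23.1% of genes with a count) had every injured library above. The log2 fold change of injured over contralateral nerves was 0.19 (SE 0.97) for Cpa3, 0.67 (SE 0.86) for Cma1, -0.18 (SE 0.83) for Mcpt4 and 0.05 (SE 0.96) for Tpsb2. These standard errors compare with a median of 0.15 over all genes, so changes of the size seen in RaptorKOs were not detectable. Kit (0.10, SE 0.24) and Gata2 (-0.59, SE 0.33) were measured more closely.

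The result in controls depended on replicate 2. Without control contralateral 2, Cpa3 was called higher in injured nerves (log2 fold change 2.70, adjusted p = 0.0323, quasi-likelihood test of edgeR). The remaining contralateral controls held 6 and 10 counts of Cpa3, which passed the filter in this case through the injured nerves alone. Without both libraries of control 2, a choice made after seeing the values, 4 members were called higher: Cpa3 (3.26), Tpsb2 (2.70), Cma1 (2.67) and Mcpt4 (1.96). In that fit no contralateral control reached 50 counts of these 4 genes, which entered it through the injured nerves alone, and with no count filter 4 of the 10 members were called, at 3.29, 2.72, 2.69 and 1.99 in the same order. Without both libraries of control 3, 0 were called and the same 4 had log2 fold changes of -0.83, -1.18, -0.66 and -1.47. The direction of the injury response of the proteases in controls was therefore not fixed by these 6 libraries.

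In RaptorKOs, 7 members passed the filter, Hdc through the injured nerves alone, and 2 were called higher after injury, where 30.5% of 12515 genes tested were called higher and 28.5% lower. Cma1 rose in the injured nerves, at 34.7 ± 13.8 CPM (SD, n = 3) against 13.03 ± 1.99 CPM contralaterally (n = 4), with a log2 fold change of 1.41 (SE 0.25, adjusted p = 5.97e-04, quasi-likelihood test of edgeR). The lowest injured library, at 21.95 CPM, was 1.39 times the highest contralateral one. Kit rose as well, at 13.8 ± 4.30 CPM against 8.01 ± 2.98 CPM, with a log2 fold change of 0.80 (SE 0.32, adjusted p = 0.0498, same test), with overlapping groups. The call of Kit was lost with RLE normalization (adjusted p = 0.0578) and when any of 5 single libraries was left out (RaptorKO contralateral 1, 2 or 3, or injured 2 or 3; adjusted p of 0.0520 to 0.211). Cma1 was called whichever library was left out, but not when all 13 libraries shared one estimate of spread (adjusted p = 0.0520).

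The other proteases did not pass the test in RaptorKOs. Mcpt4 was at 34.7 ± 8.90 CPM contralaterally and 35.7 ± 11.0 CPM when injured, a log2 fold change of 0.04 (SE 0.23). Cpa3 had a log2 fold change of 0.25 (SE 0.24), Tpsb2 of 0.27 (SE 0.28) and Gata2 of 0.03 (SE 0.30). Hdc had one of 0.58 (SE 0.33, adjusted p = 0.151, quasi-likelihood test of edgeR). Besides Cma1, Fcer1a had all 3 injured libraries above all 4 contralateral ones, so that 2 of the 10 members were separated in this direction, against 20.2% of genes with a count (31.7% of the genes tested). Ms4a2, which was not tested, averaged 2.48 ± 1.28 CPM contralaterally and 1.23 ± 0.656 CPM when injured, with overlap.

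**Figure D3:**
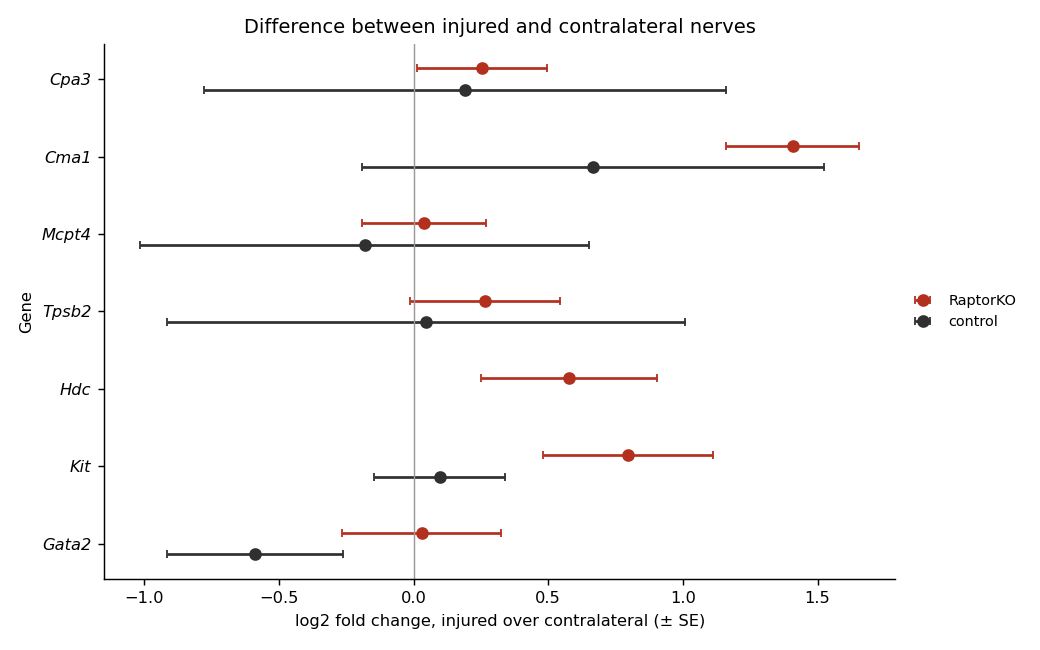
Log2 fold change of injured over contralateral nerves (points, with bars of ± 1 standard error of the fit) in controls and RaptorKOs for the members that passed the count filter. Bars are wide in controls and narrow in RaptorKOs, and Cma1 in RaptorKOs stands at 1.41 while Mcpt4, Cpa3 and Tpsb2 lie between 0.04 and 0.27.

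Cma1 and Mcpt4 can also be compared within a library, where the depth of the library and the total over the 2 genes cancel. This ratio was chosen after the values had been seen. The ratio of Cma1 to Mcpt4 counts was 0.336, 0.392, 0.434 and 0.368 in RaptorKO contralateral nerves and 0.776, 1.02 and 1.07 in RaptorKO injured nerves, without overlap. The difference was 1.31 on the log2 scale (exact two-sided permutation test, p = 0.0571, which is the lowest value possible for 3 and 4 libraries; 0.343 after Benjamini-Hochberg adjustment over 6 ratio tests). In controls, the ratio was 0.263, 0.430 and 0.947 contralaterally and 0.720, 0.625 and 0.864 when injured, a difference of 0.62 on the log2 scale (exact permutation p = 0.40, where 3 against 3 allow no less than 0.10). Control contralateral 3, with 18 and 19 counts of the 2 genes, gave the highest control value, and without control 3 the difference was 0.99 on the log2 scale (2 against 2 libraries, no test).

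The other ratios moved less in RaptorKOs. Tpsb2 to Mcpt4 was 0.722 to 0.819 contralaterally and 0.802 to 1.02 when injured, a log2 difference of 0.19 (exact permutation p = 0.171). Cpa3 to Mcpt4 was 0.455 to 0.728 and 0.592 to 0.988, a log2 difference of 0.22 (exact permutation p = 0.457). Of the 4 abundant proteases, Cma1 alone had non-overlapping ratios to Mcpt4, and no test compared the 3 ratios with each other. In controls, the log2 difference was 0.03 for Tpsb2 to Mcpt4 (exact permutation p = 0.90) and 0.80 for Cpa3 to Mcpt4 (exact permutation p = 0.40), and without control 3 it was 0.15 and 1.09 (no test). The shift of the Cma1 ratio was thus the largest of the 3 in RaptorKOs but not in controls.

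**Figure D4:**
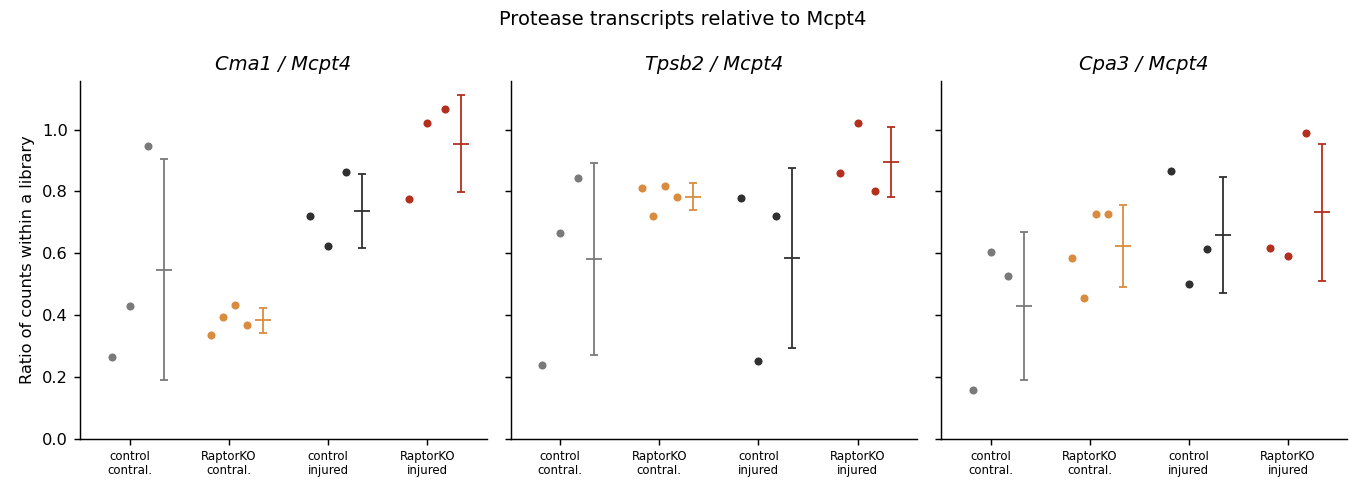
Ratio of Cma1, Tpsb2 and Cpa3 counts to Mcpt4 counts in each library (points, linear axis from 0), with the group mean ± SD beside them. Cma1 to Mcpt4 lies at 0.336 to 0.434 in RaptorKO contralateral and at 0.776 to 1.07 in RaptorKO injured nerves, whereas the other ratios overlap between these groups.

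Whether the response to injury differed between genotypes was tested as an interaction over all 13 libraries, which include those of the genotype contrast. Of 7 members tested, 0 were called (adjusted p of 0.544 to 0.990, quasi-likelihood test of edgeR; 0 had an unadjusted p below 0.05, and DESeq2 called 0), against 1.07% of 12851 genes called higher and 1.41% lower. The interaction was 0.73 (SE 0.96) for Cma1, 0.68 (SE 0.42) for Kit, 1.05 (SE 0.80) for Hdc and 0.59 (SE 0.44) for Gata2 on the log2 scale, and Cpa3, Mcpt4 and Tpsb2 lay between 0.06 and 0.21 with SEs of 0.96 to 1.08. A larger rise of Cma1 or Kit in RaptorKOs than in controls was therefore not shown. Without both libraries of control 2, a choice made after seeing the values, Cpa3 was called lower (-3.02, adjusted p = 0.0269, same test). The contralateral controls left held 6 and 10 counts of Cpa3. That fit includes the genotype contrast known when the members were picked, so nothing further is read from this call.

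The members were set beside 35 other genes of mast cell biology. Of these, 6 encode further mast cell proteases. Mcpt1, Mcpt2 and Mcpt9 had no count in any of the 13 libraries, Tpsg1 did not exceed 6 counts, and Ctsg, a cathepsin of granules, reached 0.237 to 0.982 CPM (19 counts) in RaptorKO injured nerves and 0 to 0.0983 CPM (2 counts) in control injured nerves. Gzmb, a granzyme of mast cells and of cytotoxic lymphocytes, went the other way from the members. It was at 57.4, 26.2 and 46.3 CPM in control injured nerves and at 1.61, 1.34 and 1.38 CPM in RaptorKO injured nerves, a log2 fold change of -4.88 (SE 0.32, adjusted p = 1.27e-05, quasi-likelihood test of edgeR), and -4.83 without control 3, and at most 1 count was found in any contralateral nerve. Gzmb passed the count filter through the control injured nerves alone, since RaptorKO injured nerves held 15 to 18 counts. The markers of T and NK cells summed to 0.645 to 3.12 CPM in injured control and 2.61 to 4.41 CPM in injured RaptorKO nerves.

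Of the 35 genes, 15 passed the count filter in no comparison, and 11 of them had a count in contralateral nerves and 11 in injured nerves. In contralateral nerves the RaptorKO mean was higher for 11 of 11, without overlap for 3 (Slc18a2, Mrgprb1, Mrgprb2). The injured RaptorKO mean was higher for 9, without overlap for 5 (the same 3, Ctsg and Rab27b), and lower for 2. The 2 lower ones were Tph1, the enzyme that starts serotonin synthesis, with 23 counts in control and 8 in RaptorKO injured nerves, and Gata1, a transcription factor of mast cells and red cell precursors, with 10 and 2 and no overlap. For Gata1 the nearest libraries held 1 count each (0.0921 CPM in control, 0.0919 CPM in RaptorKO), so only library scaling separated them. The same held for Mrgprb2 in injured nerves (1 count each, 0.0917 CPM in control, 0.0919 CPM in RaptorKO). The shares over all genes with a count are 6.30% and 8.29% for values higher without overlap. No share was computed for values lower without overlap, and nothing further is read from these counts.

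Mrgprb1, a receptor gene of the same family as Mrgprb2, was at 0.731, 2.70 and 0.392 CPM in control and 7.50, 2.91, 2.78 and 2.85 CPM in RaptorKO contralateral nerves, and at 0.642, 0 and 0.492 CPM in control and 2.23, 2.68 and 4.32 CPM in RaptorKO injured nerves, without overlap in either. Mrgprb2, the receptor through which basic secretagogues activate mast cells, had 3 counts over control and 45 over RaptorKO contralateral nerves, and 1 and 8 counts over injured ones. Slc18a2, the transporter that loads histamine into granules, had 4 and 27 counts in contralateral and 1 and 34 counts in injured nerves. Rab27b, a regulator of granule release, had 14 and 31 counts in contralateral nerves, with overlap (0.196 to 0.640 against 0.388 to 1.61 CPM), and 3 and 38 in injured nerves. Control contralateral 2 was the highest control contralateral library for Mrgprb1 and Mrgprb2, as for Cpa3, Cma1, Mcpt4 and Tpsb2.

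Il1rl1, the receptor for interleukin 33, averaged 1.47 ± 1.17 CPM in control and 4.32 ± 1.78 CPM in RaptorKO contralateral nerves, and 2.71 ± 1.27 and 6.81 ± 3.06 CPM in injured nerves. Its log2 fold change in injured nerves was 1.34 (SE 0.46, adjusted p = 0.104, quasi-likelihood test of edgeR). The adjusted p was 0.0394 with the exact test and 0.0312 with DESeq2. Il1rl1 passed the filter there through RaptorKO injured 2 and 3 alone (104 and 97 counts), so these p-values add no support. The edgeR value ranged from 0.0561 to 0.291 when control injured 1, 2 or 3 or RaptorKO injured 1 was left out. Without RaptorKO injured 2 or 3, Il1rl1 did not pass the filter. Of the 18 other mast cell genes tested in injured nerves, 0 were called higher and 1 (Gzmb) lower between genotypes, against 4.09% and 4.44% of all genes, with 3 higher at an unadjusted p below 0.05 and 2 called higher by the exact test and by DESeq2 (Il1rl1 and Lat2). Without control 3, Lat2 was called higher in injured nerves (log2 fold change 0.82, adjusted p = 0.0214, quasi-likelihood test of edgeR). Il1rl1 was then at 1.64 (adjusted p = 0.121, same test). Of the 12 tested in contralateral nerves, Fcer1g was called higher and Mitf lower, against 4.49% and 5.68% of genes. The call of Fcer1g was lost without control contralateral 2 (adjusted p = 0.0528, quasi-likelihood test of edgeR). It was kept without control 3 (log2 fold change 1.01, adjusted p = 0.0191, same test).

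**Figure D5:**
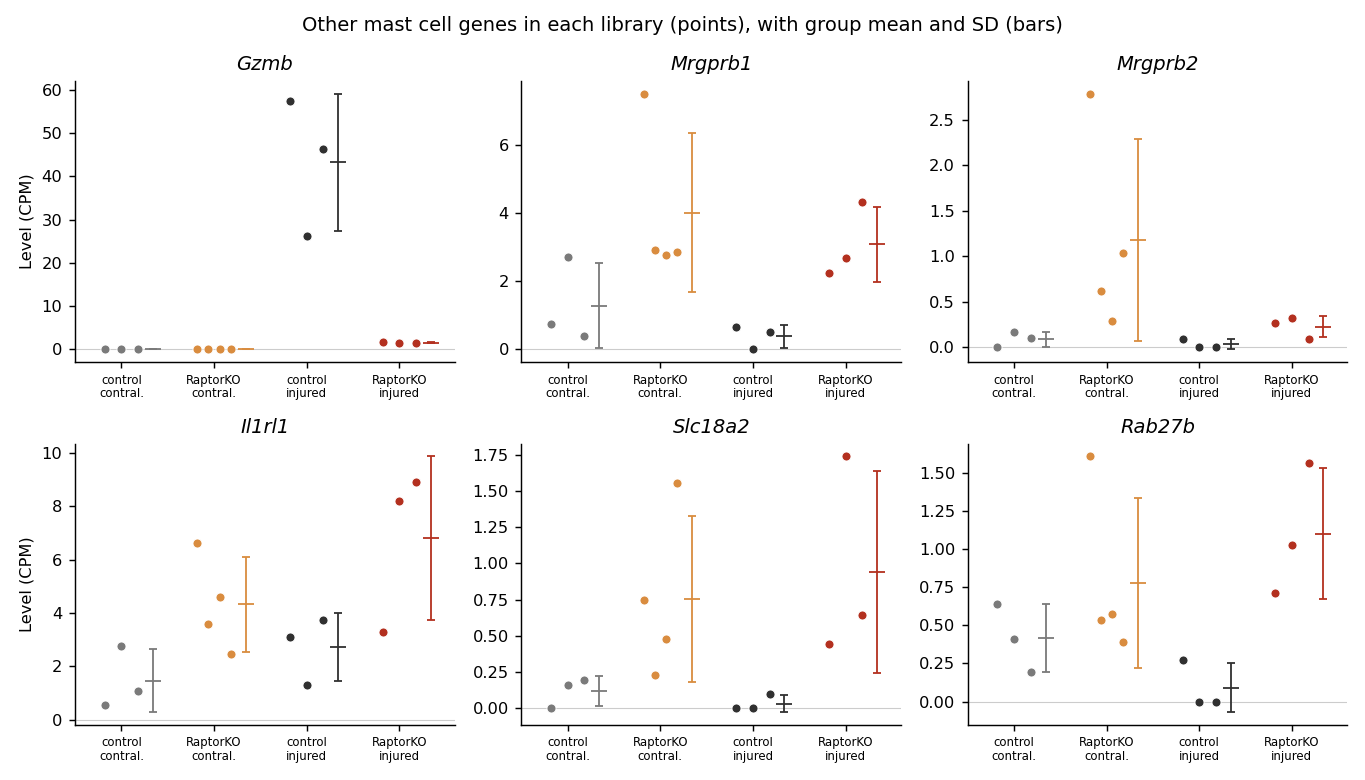
Level of 6 further mast cell genes in each library (CPM, linear axes that differ between panels), with the group mean ± SD beside the points. Gzmb is at 26.2 to 57.4 CPM in control injured nerves and at most 1.61 CPM elsewhere, whereas Mrgprb1 lies higher in RaptorKO than in control nerves.

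After injury, many of the shared signalling and lipid mediator genes were called. Of 18 other mast cell genes tested in controls, 11 were called higher and 3 lower (Kitl, Mitf, Hnmt), where 32.4% and 32.9% of all genes tested were. Gzmb, Btk, Ltc4s, Lat2, Alox5ap and Il3ra had at most 47 counts in any control contralateral library. They passed the filter there through the injured nerves alone. Hpgds (39 to 65 counts) and Ptgs1 (39 to 56) stood near the limit contralaterally. Hnmt, with 11 to 20 counts in control injured nerves, passed through the contralateral ones alone. Of 19 tested in RaptorKOs, 12 were called higher and 0 lower, where 30.5% and 28.5% of all genes were (0 lower at an unadjusted p below 0.05, and 1 lower by DESeq2). Btk, Ltc4s and Tal1 had at most 46 counts in any RaptorKO contralateral library and passed through the injured ones alone. Since such genes had to be high in 1 group to be included, nothing further is read from the numbers called. Fcer1g, the signalling chain that the IgE receptor shares with other Fc receptors, went from 7.15 ± 0.873 to 154 ± 10.9 CPM in controls and from 13.2 ± 1.46 to 148 ± 37.7 CPM in RaptorKOs. Syk, the kinase downstream of it, had log2 fold changes of 3.87 (SE 0.13) and 3.31 (SE 0.22), and Hpgds, a prostaglandin D2 synthase, of 3.49 (SE 0.17) and 2.96 (SE 0.25). Macrophages express Fcer1g, Syk, Btk, Lyn, Lat2, Hpgds and Alox5ap too, and the 6 macrophage markers were all called higher after injury in both genotypes, summing to 158 to 322 CPM in contralateral and 1787 to 3650 CPM in injured nerves. Their part in these values was not tested.

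The ligand of Kit, Kitl, was at 50.9 ± 5.97 CPM in control and 60.9 ± 10.003 CPM in RaptorKO contralateral nerves, and at 40.7 ± 1.51 and 49.8 ± 9.92 CPM in injured nerves. Neither genotype difference passed the test (log2 fold change 0.28, SE 0.13, adjusted p = 0.229, and 0.31, SE 0.15, adjusted p = 0.265, quasi-likelihood test of edgeR), and without control 3 they were 0.36 and 0.33. Mitf, a transcription factor of mast cells and of other lineages, fell between genotypes in contralateral nerves by 0.54 on the log2 scale (SE 0.13, adjusted p = 0.0230, same test), from 25.3 ± 1.01 to 17.1 ± 2.03 CPM, and that call was lost without any of 4 single libraries (adjusted p up to 0.0895), control contralateral 3 among them. Hnmt, which inactivates histamine, fell after injury in controls by 2.58 on the log2 scale (SE 0.34, adjusted p = 3.40e-05, same test), having passed the filter through the contralateral nerves alone. Srgn, the granule proteoglycan core that many blood cells also make, was at 53.3 to 70.9 CPM as group means and was called in no comparison.

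Markers of other cells were read in the same libraries. Basophils share Fcer1a, Ms4a2, Hdc and Gata2 with mast cells, and their own markers (Mcpt8, Prss34, Cd200r3) summed to at most 2.75 CPM in any library, with 0 to 1.07 CPM in RaptorKO contralateral and 0.553 to 1.38 CPM in RaptorKO injured nerves. Macrophage markers were called higher in contralateral RaptorKO nerves for 4 of 6 genes (254 to 322 CPM against 158 to 181 CPM in sum) and for 0 of 6 in injured nerves. The 2 hemoglobin genes were called higher in injured RaptorKO nerves (24.9 to 43.9 against 2.20 to 14.1 CPM) and 1 of them (Hbb-bs) in contralateral nerves (84.2 to 146 against 42.6 to 79.6 CPM). Genes of the outer sheaths (Pi16, Dpt, Clec3b, Slc2a1, Itgb4, Cldn1, Moxd1) summed to 994 to 1206 CPM in control and 957 to 1744 CPM in RaptorKO contralateral nerves, with 0 of 7 called, and to 387 to 437 and 421 to 450 CPM in injured nerves, with 1 of 5 called (Slc2a1, higher). Adipocyte markers ranged from 0 to 134 CPM in contralateral nerves and were at most 0.158 CPM in injured RaptorKO nerves. The part of macrophages, blood and outer tissue in the mast cell values was not tested.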

How the data were processed

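The members and gene lists were chosen with earlier results of these data known. Per the labels and the study's methods, the authors trimmed reads with Trimmomatic, aligned them to GRCm38 and estimated expected counts per gene with RSEM 1.2.22, which were deposited as 1 table of 40787 genes by 13 libraries with no normalization. The labels name a TruSeq RNA kit and the methods a stranded one, and how strand was used in counting is not given in the sources used here. Symbols (40550 matched) and positions came from the GENCODE annotation of GRCm38.

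Expected counts were rounded and tested with edgeR 4.0.16 (quasi-likelihood test, TMM scaling) in R 4.3.3, over genes that reached 50 counts in 2 libraries or more of a comparison, with Benjamini-Hochberg adjustment over all genes tested. A call needed an adjusted p below 0.05 and a fold change above 1.2 (no fold limit for the interaction). The study's exact test, DESeq2 1.42.0, RLE scaling, no count filter, 1 fit over all libraries, a replicate block, a prior count of 2 and leaving out libraries were alternatives. The scripts were tested on simulated data. Ratios were tested with exact permutation tests in scipy 1.17.1. RPKM used the summed exon length of each gene. A larger library gives less counting error, and intervals and limits from counts cover that error only. Per the study, the libraries of a group came from separate mice, so p-values between genotypes measure the spread between mice. The main tests of injury and of the interaction treated same-numbered nerves, which are likely to share a mouse, as independent.

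The text names all 10 members, then 35 other mast cell genes by list, with values for those called and at most 4 better known ones per list, and the 8 genes most like the members over the libraries. Mrgprb1, Rab27b and Ctsg, and the scarce Tph1 and Gata1, were shown after their values had been seen. Sequences of Tpsb2, Tpsab1 and proteins were not used here.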

Additional observations from a re-analysis of the deposited data

Results flagged for a closer look

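In the group of 4 RaptorKO contralateral libraries, 5 of 45 genes examined had 1 library far from the rest. Chance gives about 1 in 20 for continuous values, a rate that does not hold for 3 of the 5 (Ctsg, Gzmb and Aoc1), in which the other 3 libraries had no count. Mrgprb1 reached 7.50 CPM in library 1 against 2.78 to 2.91 CPM in the other 3, and Rab27b reached 1.61 CPM in the same library. Ctsg was at 0.429 CPM (4 counts) in that library and at 0 in the others. Gzmb and Aoc1 were each at 0.0958 CPM, a single count in 1 library.

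Btk, a kinase of mast cells, B cells and macrophages, was the 1 other mast cell gene of 20 tested that was called in the interaction by edgeR (-2.41 on the log2 scale, SE 0.56, adjusted p = 0.0345, quasi-likelihood test of edgeR). It went from 0.414 ± 0.105 to 12.2 ± 2.14 CPM in controls and from 2.37 ± 0.609 to 12.6 ± 5.67 CPM in RaptorKOs. The call was kept in 4 of 15 fits that left libraries out, with adjusted p up to 0.155, and DESeq2 gave 0.00426. DESeq2 also called Fcer1g lower (adjusted p = 0.00801), which edgeR placed at -0.94 (adjusted p = 0.0535) and called in 3 of the 15 fits.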

How the results depend on the processing

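Without a control library of replicate 2, results in controls changed most, and the cause was not tested. In contralateral nerves, the median log2 fold change between genotypes over the 6 members tested, 4 of which passed the filter through the RaptorKOs, was 1.97, and 3.50 without control contralateral 2. It was 1.57 to 3.50 over all single libraries left out. Under the other alternatives it was 1.86 to 2.34, the lowest with no filter over all 10 members and the highest with the replicate block. In injured nerves it was 2.33 over 7 members, 1.78 to 2.94 with single libraries left out and 2.30 to 2.54 otherwise, the highest with the replicate block. After injury in controls, 0 to 1 members were called with single libraries left out, and 4 without both libraries of control 2, an alternative chosen after seeing the data, which turned Mcpt4 to 1.96. The same alternative gave 1 call of the interaction, with Cpa3 at -3.02, and single libraries gave 0. With no count filter as well, 4 were called after injury in controls and Mcpt4 was at 1.99. Without both libraries of control 3, Mcpt4 was at -1.47 after injury in controls and Cpa3 at 1.07 in the interaction, neither called. After injury in RaptorKOs, 1 member was called with RLE scaling and 1 in the fit over all 13 libraries, and 1 to 2 with single libraries left out.

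Same-numbered libraries correlated at 0.0674 to 0.305 between control nerves and -0.0239 to 0.211 between RaptorKO nerves after centring, and 4 of these 6 correlations were over 0.1. Between genotypes, where the mice differ, same-numbered libraries correlated at 0.0724 to 0.301 in contralateral and -0.0495 to 0.0267 in injured nerves. The correlations thus do not show by themselves that a number marks a mouse. The study sequenced injured nerves along with the corresponding contralateral nerves, and both Xist-positive libraries carry number 3. Same-numbered nerves of a genotype are therefore likely to share a mouse, although the labels do not state it. The main fits did not use the numbers as pairs. A replicate block changed no call of a member (0 in controls, 2 in RaptorKOs, 0 in the interaction). For the genotype contrasts, that block tied control and RaptorKO libraries of the same number, which are different mice. It gave medians of 2.34 in contralateral and 2.54 in injured nerves, which do not show an effect of pairing. Of the genes most like the members, 2 of 8 stayed without control contralateral 2 and 1 of 8 without centring. Tpsab1, Ms4a2 and Fcer1a had few counts and passed the filter in no comparison.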
